A study of Mus musculus with 8 samples.

Results

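The genes described here are the subunits of the transcription factor NF-kB and the inhibitors and IkB family members that restrain or modify it. They were taken from the files by gene symbol. The 5 subunit genes are Rela, Relb, Rel, Nfkb1 and Nfkb2. The 5 inhibitor and IkB genes are Nfkbia, Nfkbie, Nfkbiz, Bcl3 and Tnfaip3. All 10 were listed among the 18957 genes of each library, and all 10 were among the 13036 genes abundant enough to be tested. RNA was sequenced from cardiac fibroblasts of WT and Pdgfra-Cre:LmnaF/F mice aged 3 to 4 weeks, on a strain background given as C57BL/6 (mixed), as 4 libraries of each genotype. The WT mice were littermates with wild-type alleles only. The Pdgfra-Cre:LmnaF/F mice carried the Pdgfra-Cre bacterial artificial chromosome transgene and a floxed exon 2 on both alleles of Lmna, the gene of the nuclear lamina proteins lamin A and C. Because no library of mice with the transgene alone was analysed here, the presence of Cre and the loss of Lmna cannot be told apart. The Pdgfra promoter is active in most cardiac fibroblasts, in other mesenchymal cells and, during development, in a small subset of cardiac myocytes. After collagenase digestion of the heart, the cells were sorted as living, PDGFRA-positive and negative for hematopoietic lineage markers.

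NF-kB is a family of dimeric transcription factors that rest in the cytoplasm, bound by IkB proteins. Signals from cytokine receptors, Toll-like receptors or DNA damage activate the IkB kinase complex, IkB proteins are degraded, and the freed dimers enter the nucleus and induce cytokine, chemokine and survival genes. Several inhibitors are themselves induced by NF-kB, so their transcripts are often read as a feedback arm of the pathway, and in fibroblasts the pathway is best known for the production of cytokines and chemokines.

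The promoters of the feedback inhibitors and of some subunits are textbook examples of NF-kB binding, so the RefSeq promoter windows of the members were searched, on GRCm38.p6, from 250 bases before to 50 bases after each start. Windows were listed for 7 of the 10 genes. Nfkb1, Nfkbiz and Relb had no entry. The search used the 10-base NF-kB consensus on both strands. It matched the windows of 6 of the 7 genes (85.7%), with no match for Rela. Among all tested genes with a window, 658 of 10197 (6.45%) held a match, and among all RefSeq windows 1480 of 32851 (4.51%) did. Of 23 NF-kB target genes with a window, 10 (43.5%) held a match. A match is a run of letters and not a measured binding site. Windows of 4 members are shown, 5′ to 3′ along the gene, with every base of a match in capitals. Nfkbia and Tnfaip3 are shown as the inhibitors with a window and the lowest p-values of the genotype comparison, Nfkb2 as the subunit with the most matches, and Rela as the subunit without one.
Nfkbia, chr12:55492598-55492897, minus strand: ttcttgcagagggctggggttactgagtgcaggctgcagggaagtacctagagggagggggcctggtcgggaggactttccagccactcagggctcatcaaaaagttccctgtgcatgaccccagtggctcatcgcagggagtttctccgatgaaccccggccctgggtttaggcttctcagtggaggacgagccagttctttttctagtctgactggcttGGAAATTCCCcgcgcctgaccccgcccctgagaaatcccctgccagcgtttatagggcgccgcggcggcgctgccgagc
Tnfaip3, chr10:19015361-19015660, minus strand: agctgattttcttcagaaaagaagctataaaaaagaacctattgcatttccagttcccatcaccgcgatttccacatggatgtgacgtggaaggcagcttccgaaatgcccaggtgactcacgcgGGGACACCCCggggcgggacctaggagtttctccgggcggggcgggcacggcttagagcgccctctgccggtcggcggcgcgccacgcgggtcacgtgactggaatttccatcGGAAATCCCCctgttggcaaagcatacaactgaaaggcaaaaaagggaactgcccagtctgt
Nfkb2, chr19:46304487-46304786, plus strand: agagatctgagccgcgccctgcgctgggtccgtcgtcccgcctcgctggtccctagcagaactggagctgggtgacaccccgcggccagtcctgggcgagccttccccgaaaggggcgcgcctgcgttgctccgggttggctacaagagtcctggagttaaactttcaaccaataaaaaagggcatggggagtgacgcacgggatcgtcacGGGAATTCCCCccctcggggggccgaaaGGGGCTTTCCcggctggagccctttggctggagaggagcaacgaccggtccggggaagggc
Rela, chr19:5637291-5637590, plus strand: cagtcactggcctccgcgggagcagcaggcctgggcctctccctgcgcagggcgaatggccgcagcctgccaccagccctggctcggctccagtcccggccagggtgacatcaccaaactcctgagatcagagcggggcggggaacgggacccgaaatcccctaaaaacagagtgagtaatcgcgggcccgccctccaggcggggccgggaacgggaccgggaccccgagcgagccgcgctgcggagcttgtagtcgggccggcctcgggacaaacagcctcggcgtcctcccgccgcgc
The match of Nfkbia lay at positions -29 to -20, with the start counted as 1, and read GGGAATTTCC on the strand opposite to the gene. Tnfaip3 had GGGACACCCC at -125 to -116 on the gene's own strand, and GGGGATTTCC at -12 to -3 on the opposite strand. The window of its second RefSeq start, chr10:19011914-19012213, held none. In the first window of Nfkb2, GGGAATTCCC at -39 to -30 read the same on both strands and overlapped GGGGAATTCC, and GGGGCTTTCC lay at -11 to -2. Of the members not shown, Rel had GGGAAATCCC at -92 to -83, Nfkbie had GGGGGATTCC at -106 to -97, and Bcl3 had GGGACTTCCC at 3 to 12 on the opposite strand, within the transcript.

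The libraries held between 2080555 and 12502949 counts, with WT 2 the shallowest and Pdgfra-Cre:LmnaF/F 4 the deepest. Values are given as CPM, the counts of a gene scaled to a common library size with TMM factors, with the standard deviation (SD) over the 4 libraries of a group. Lmna lay at 274 to 483 CPM in the WT and 90.4 to 130 CPM in the Pdgfra-Cre:LmnaF/F libraries (log2 fold change -1.72, SE 0.22, edgeR Benjamini-Hochberg adjusted p = 0.00492). The 8 fibroblast markers, including Pdgfra, Col1a1 and Dcn, summed to 82819 to 96809 CPM in the WT and 80941 to 93525 CPM in the Pdgfra-Cre:LmnaF/F libraries. Pdgfra-Cre:LmnaF/F 4 stood apart, with 5681 CPM over 7 cardiomyocyte markers against 296 to 1020 CPM elsewhere, and 416 CPM over 10 leukocyte markers against 39.97 to 171 CPM elsewhere. The summed level of 26 genes induced by tissue dissociation, such as Fos and Egr1, was 5398, 3475, 7119 and 4770 CPM in WT 1 to 4 and 9737, 10875, 15679 and 10282 CPM in Pdgfra-Cre:LmnaF/F 1 to 4, with no overlap. Results that rest on WT 2 or Pdgfra-Cre:LmnaF/F 4 are therefore given with and without them.

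In the LMNA-deficient fibroblasts, transcripts of the atypical IkB gene Nfkbiz and the inhibitor Tnfaip3 lay above the WT in every library, by 1.93-fold and 2.26-fold, whereas none of the subunits did. Nfkb1 was 1.35-fold lower, with a margin under 1 CPM between the groups. Rela, Relb, Rel, Nfkb2, Nfkbie and Bcl3 had differences within the spread of the libraries. No member passed an adjusted p of 0.05 in the edgeR quasi-likelihood test with Benjamini-Hochberg adjustment over all tested genes, where 53 of 13036 genes (0.407%) passed. At an unadjusted p under 0.05, 3 members were higher and 1 was lower, against 6.24% and 5.65% of all tested genes (11.9% in either direction). DESeq2 and limma-voom each called 1 member, Nfkbiz, where they called 2.58% and 0.967% of the genes tested. The groups did not overlap for 2 members that were higher and 1 that was lower, against 4.06% and 3.97% of all tested genes (8.03% in either direction). The median log2 fold change was 0.78 over the 5 inhibitor and IkB genes, -0.29 over the 5 subunits and 0.02 over all tested genes. The first is the value of Nfkbie, the least even member, and it was 0.54 under limma-voom and 0.53 with the replicate number as a block. With 1 library left out it lay between 0.59 and 1.003. The median of the subunits was -0.044 under limma-voom and 0.058 without WT 3, which held the most Relb. In sorted bulk RNA, fewer cells that express a gene and less of its RNA per cell cannot be told apart.

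**Figure D1:**
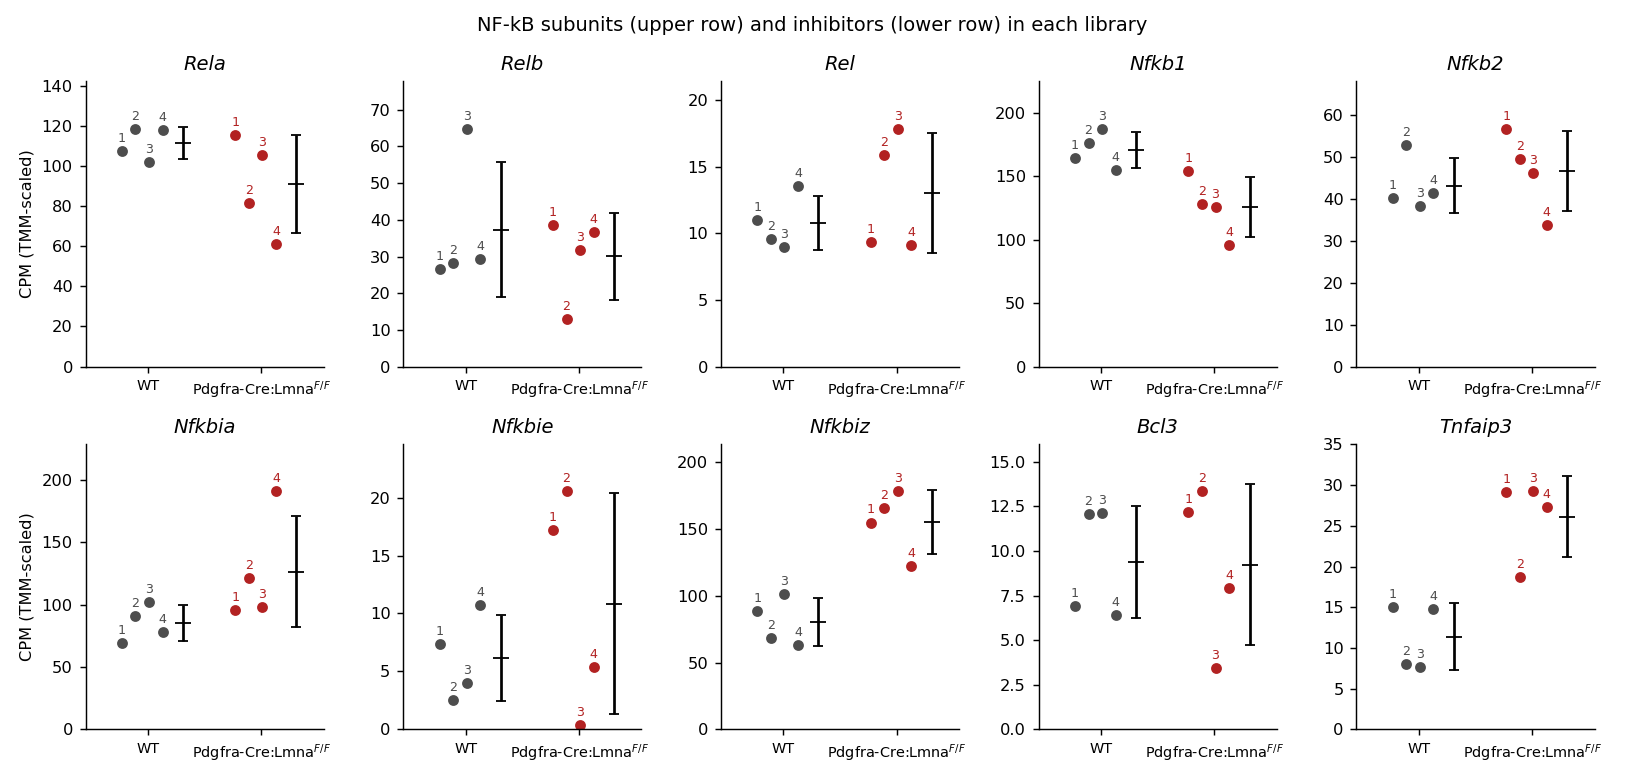
TMM-scaled CPM (vertical axes, each from 0) of the 5 subunits (upper panels) and the 5 inhibitor and IkB genes (lower panels) in each of 4 WT and 4 Pdgfra-Cre:LmnaF/F libraries, with the replicate number above each point and the mean ± SD beside each group. The Pdgfra-Cre:LmnaF/F points of Nfkbiz (122 to 178 CPM) and Tnfaip3 (18.8 to 29.2 CPM) all lie above the WT points, and those of Nfkb1 (95.7 to 154 CPM) all lie below them.

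Nfkbiz (ENSMUSG00000035356.17, chromosome 16, 55811375 to 55838899, minus strand, GRCm38) encodes IkB-zeta, an inducible nuclear IkB protein that acts with NF-kB dimers at a subset of target genes. It had 88.4, 68.4, 102 and 63.3 CPM in WT 1 to 4 and 155, 166, 178 and 122 CPM in Pdgfra-Cre:LmnaF/F 1 to 4. The lowest Pdgfra-Cre:LmnaF/F library, number 4, lay above the highest WT library, number 3. The means were 80.4 ± 17.8 and 155 ± 24.1 CPM (SD, n = 4 each). The log2 fold change was 0.95 (SE 0.21, 95% interval 0.49 to 1.40), with an edgeR adjusted p = 0.0800 (Benjamini-Hochberg), and the gene ranked 79 by p among the 13036 tested. Its log2 fold change moved little between methods, from 0.93 to 1.09, while its adjusted p moved across the threshold. DESeq2 gave an adjusted p = 0.00505, limma-voom 0.0124, edgeR without a filter on low counts 0.0187 and edgeR with 1 RUVr factor 0.0459. These last 2 settings called 1.45% and 0.621% of all genes tested. The edgeR adjusted p stayed above the threshold with RLE factors (0.0817), with at least 10 counts in every library (0.0571) and with the replicate number as a block (0.0963). With 1 library left out it reached 0.262, without WT 4. Without Pdgfra-Cre:LmnaF/F 4 the log2 fold change was 1.04 with an edgeR adjusted p = 0.0374, where 0.565% of the genes tested were called. Without both WT 2 and Pdgfra-Cre:LmnaF/F 4 it was 0.98 with an edgeR adjusted p = 0.110, where 0.283% were called.

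Tnfaip3 (ENSMUSG00000019850.11, chromosome 10, 19000910 to 19015657, minus strand) encodes a ubiquitin-editing enzyme that shuts off signals upstream of the IkB kinase. It had 15.0, 8.05, 7.67 and 14.8 CPM in WT 1 to 4 and 29.2, 18.8, 29.2 and 27.3 CPM in Pdgfra-Cre:LmnaF/F 1 to 4. The value of WT 2 rested on 16 counts, the lowest of the 8 libraries. All Pdgfra-Cre:LmnaF/F libraries lay above the WT libraries, and Pdgfra-Cre:LmnaF/F 2 was the closest to them. The means were 11.4 ± 4.08 and 26.1 ± 4.98 CPM (SD, n = 4 each). The log2 fold change of 1.18 (SE 0.36, 95% interval 0.42 to 1.94) had an edgeR adjusted p = 0.194 (Benjamini-Hochberg), and no setting tried brought it under 0.05. The adjusted p lay between 0.0748 and 0.246 under the other tests, filters and scalings, and between 0.195 and 0.420 in the edgeR test with 1 library left out. Without both WT 2 and Pdgfra-Cre:LmnaF/F 4 it was 1.03, with an edgeR adjusted p = 0.446.

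Nfkbia (ENSMUSG00000021025.8, chromosome 12, 55489410 to 55492647, minus strand) encodes IkB-alpha, the main cytoplasmic inhibitor and a rapid feedback gene. Its levels were 69.0, 91.1, 102 and 78.2 CPM in WT 1 to 4 and 95.7, 121, 98.0 and 191 CPM in Pdgfra-Cre:LmnaF/F 1 to 4. Pdgfra-Cre:LmnaF/F 1 and 3 lay below WT 3, so the groups overlapped, and Pdgfra-Cre:LmnaF/F 4 was the highest by a wide margin. The log2 fold change was 0.57 (SE 0.24, 95% interval 0.05 to 1.09; edgeR Benjamini-Hochberg adjusted p = 0.370), with means of 85.1 ± 14.6 and 126 ± 44.5 CPM (SD, n = 4 each). It was 0.30 without Pdgfra-Cre:LmnaF/F 4 and 0.34 without both WT 2 and Pdgfra-Cre:LmnaF/F 4. The library with the highest Nfkbia was also the one with the most cardiomyocyte and leukocyte marker RNA, whose part in this value was not tested. Nfkbiz and Tnfaip3, at 122 and 27.3 CPM in that library, lay above all WT libraries there but were not at their highest. The part of this marker RNA in their values was not tested either.

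Nfkbie (ENSMUSG00000023947.8, chromosome 17, 45555703 to 45563169, plus strand), encoding the inhibitor IkB-epsilon, was low and uneven. It had 7.38, 2.52, 3.99 and 10.8 CPM in WT 1 to 4 and 17.2, 20.5, 0.345 and 5.33 CPM in Pdgfra-Cre:LmnaF/F 1 to 4. Pdgfra-Cre:LmnaF/F 1 and 2 were the highest of all libraries, and Pdgfra-Cre:LmnaF/F 3 was the lowest, with 3 counts. The log2 fold change of 0.78 had a 95% interval of -1.01 to 2.57, which spans differences in either direction. It was 0.28 without Pdgfra-Cre:LmnaF/F 2, 1.19 without WT 4, -0.21 under limma-voom and 0.047 with the replicate number as a block. Bcl3 (ENSMUSG00000053175.17, chromosome 7, 19808462 to 19822770, minus strand) encodes a nuclear IkB protein that binds dimers of the Nfkb1 and Nfkb2 products. It had 6.91, 12.1, 12.1 and 6.42 CPM in WT 1 to 4 and 12.2, 13.3, 3.45 and 7.92 CPM in Pdgfra-Cre:LmnaF/F 1 to 4. The groups covered much the same range, and the log2 fold change was -0.01 (95% interval -1.17 to 1.15). Of the 2475 exonic bases of Bcl3, 161 are shared with an antisense gene, whose reads could be counted with it if strand was not used.

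Nfkb1 (ENSMUSG00000028163.17, chromosome 3, 135584655 to 135691547, minus strand) encodes a precursor whose processed form is the usual partner of the Rela product. It was the most abundant subunit by CPM, with 164, 176, 187 and 155 CPM in WT 1 to 4 and 154, 128, 126 and 95.7 CPM in Pdgfra-Cre:LmnaF/F 1 to 4. The groups did not overlap, but WT 4 (154.6 CPM) and Pdgfra-Cre:LmnaF/F 1 (153.9 CPM) nearly met. The means were 171 ± 14.3 and 126 ± 23.8 CPM (SD, n = 4 each), and the log2 fold change was -0.44 (SE 0.19, 95% interval -0.85 to -0.02; edgeR Benjamini-Hochberg adjusted p = 0.393). Without both WT 2 and Pdgfra-Cre:LmnaF/F 4 it was -0.31.

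Rela (ENSMUSG00000024927.8, chromosome 19, 5637483 to 5648130, plus strand) encodes the main activating subunit of the canonical pathway. It had 107, 119, 102 and 118 CPM in WT 1 to 4 and 116, 81.9, 106 and 61.2 CPM in Pdgfra-Cre:LmnaF/F 1 to 4. The WT libraries were close to each other, Pdgfra-Cre:LmnaF/F 1 and 3 lay within their range, and Pdgfra-Cre:LmnaF/F 2 and 4 lay below it. The log2 fold change was -0.29 (SE 0.22, 95% interval -0.76 to 0.17), and it was -0.11 without both WT 2 and Pdgfra-Cre:LmnaF/F 4. In the library with the lowest Rela and Nfkb1, number 4, the cardiomyocyte and leukocyte marker sums were the highest, and their part in the lower values was not tested.

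The other 3 subunits showed no shared direction. Relb (ENSMUSG00000002983.17, chromosome 7, 19606217 to 19629438, minus strand), the partner of the processed Nfkb2 product in the non-canonical pathway, had 26.7, 28.2, 64.9 and 29.3 CPM in WT 1 to 4 and 38.6, 12.9, 31.9 and 36.7 CPM in Pdgfra-Cre:LmnaF/F 1 to 4. WT 3 held the most of all libraries, and without it the log2 fold change of -0.32 (95% interval -1.11 to 0.48) became 0.093. Rel (ENSMUSG00000020275.9, chromosome 11, 23736847 to 23770970, minus strand), the subunit best known from lymphocytes, had 11.0, 9.56, 8.95 and 13.6 CPM in WT 1 to 4 and 9.31, 15.9, 17.8 and 9.08 CPM in Pdgfra-Cre:LmnaF/F 1 to 4. Pdgfra-Cre:LmnaF/F 2 and 3 were above all WT libraries, the other two were within their range, and the log2 fold change was 0.27 (95% interval -0.64 to 1.17). It was 0.079 without Pdgfra-Cre:LmnaF/F 3, and with another library left out it lay between 0.15 and 0.40. Nfkb2 (ENSMUSG00000025225.15, chromosome 19, 46304320 to 46312385, plus strand), which encodes a precursor that also acts as an inhibitor, had 40.1, 52.8, 38.2 and 41.4 CPM in WT 1 to 4 and 56.7, 49.4, 46.0 and 33.8 CPM in Pdgfra-Cre:LmnaF/F 1 to 4. Its groups overlapped, with a log2 fold change of 0.11 (95% interval -0.39 to 0.62). It was 0.34 without both WT 2 and Pdgfra-Cre:LmnaF/F 4, and 0.0012 to 0.24 with 1 library left out, lowest without Pdgfra-Cre:LmnaF/F 1 and highest without Pdgfra-Cre:LmnaF/F 4. Of its 4584 exonic bases, 531 and 299 are shared with 2 genes on the opposite strand, whose reads cannot be told apart from its own if strand was not used in counting.

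**Figure D2:**
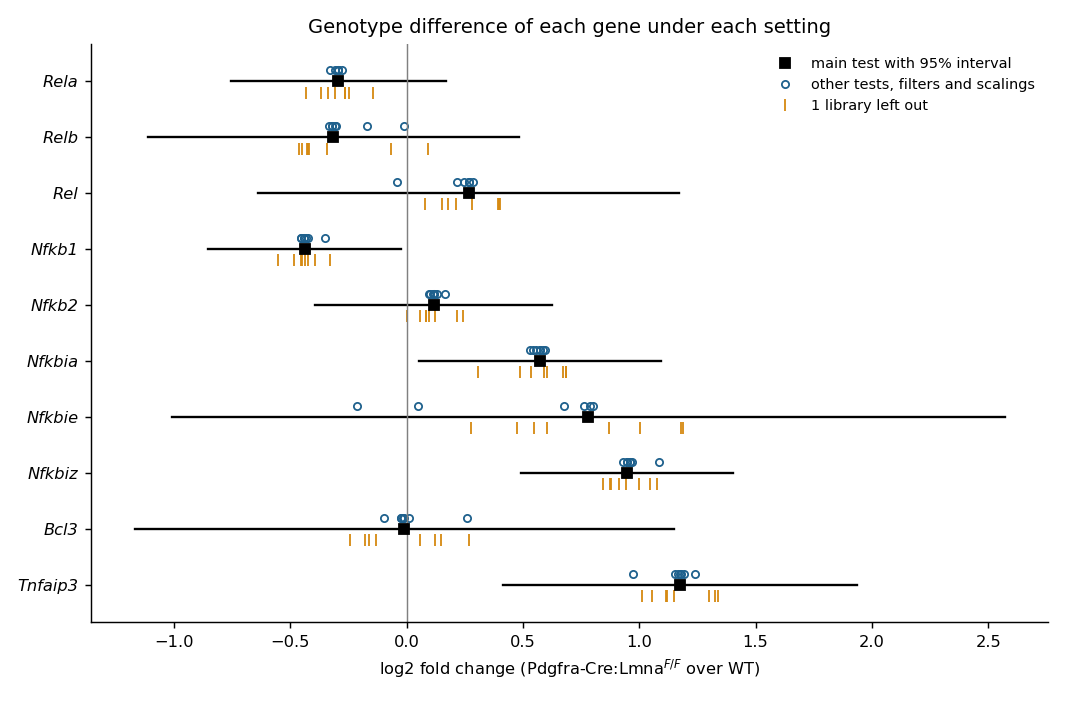
Log2 fold change of each member (Pdgfra-Cre:LmnaF/F over WT, horizontal axis) by the edgeR quasi-likelihood test with its 95% interval (squares and lines), under 7 other tests, filters, scalings or covariates (circles, 6 for Nfkbie) and with each of the 8 libraries left out (ticks). Nfkbiz, Tnfaip3, Nfkbia and Nfkb2 stay above 0 (Nfkb2 down to 0.0012) and Nfkb1 and Rela below 0 under every setting drawn, whereas Relb, Rel, Nfkbie and Bcl3 cross 0 under at least 1 of them.

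Each of the 3 inhibitor and IkB genes with an unadjusted p under 0.05 was higher beside a higher dissociation response. Of the 25 tested genes of that list, 21 were higher. Of the 25, 2 were higher and passed the edgeR test, against 0.169% of all tested genes, and 12 lay above the WT without overlap, against 4.06%. The median log2 fold change of the 25 was 1.31. The lowest dissociation sum of the Pdgfra-Cre:LmnaF/F libraries was 9737 CPM in Pdgfra-Cre:LmnaF/F 1 and the highest of the WT was 7119 CPM in WT 3. Nfkbiz was highest, within each genotype, in the same libraries as this sum, WT 3 and Pdgfra-Cre:LmnaF/F 3. Tnfaip3 was lowest among the WT in WT 3 and, by a margin under 1 CPM, highest among the Pdgfra-Cre:LmnaF/F libraries in Pdgfra-Cre:LmnaF/F 3. The part of the dissociation response in these values was not tested. Endothelial markers summed to 185 to 296 CPM in the WT and 115 to 248 CPM in the Pdgfra-Cre:LmnaF/F libraries, and mural markers to 230 to 392 and 203 to 386 CPM. Mesothelial and Schwann cell markers summed to 8.47 to 26.2 and 5.74 to 18.2 CPM. Of the 6 tested leukocyte markers, 5 were higher in the Pdgfra-Cre:LmnaF/F libraries, with a median log2 fold change of 0.91. The leukocyte sum was 51.6, 99.9 and 88.0 CPM in Pdgfra-Cre:LmnaF/F 1 to 3, within the WT range of 39.97 to 171 CPM, and 416 CPM in Pdgfra-Cre:LmnaF/F 4. Of the 6, 1 had an unadjusted p under 0.05 by edgeR. In Pdgfra-Cre:LmnaF/F 4, Lyz2 was at 282 CPM, Csf1r at 44.7, Cd68 at 27.9, Adgre1 at 21.4, Laptm5 at 17.8 and Ptprc at 12.9 CPM, while the T cell gene Cd3e was at 0 in all 4 Pdgfra-Cre:LmnaF/F libraries. The part of leukocyte RNA in the members' values was not tested.

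**Figure D3:**
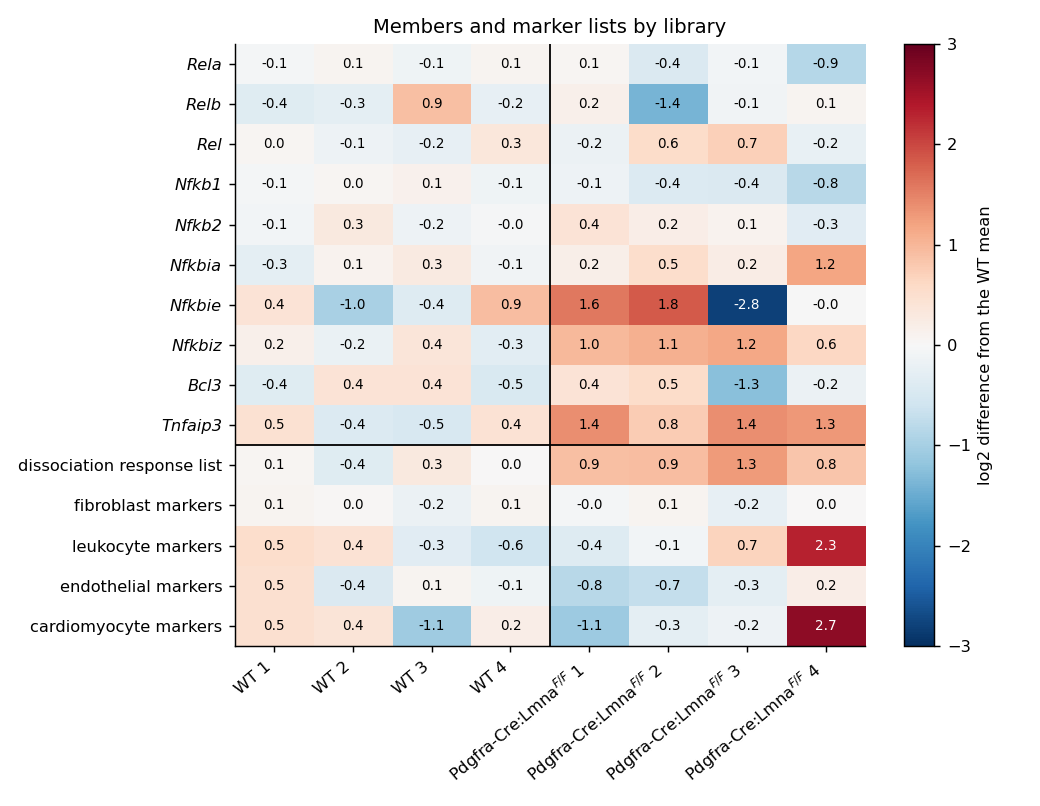
Log2 difference from the WT mean in each library (columns) for the 10 members (upper rows, log2 CPM) and for the mean log2 CPM of 5 marker lists (lower rows). Nfkbiz and Tnfaip3 are above the WT mean in all 4 Pdgfra-Cre:LmnaF/F libraries together with the dissociation list, whereas the leukocyte and cardiomyocyte lists stand out in Pdgfra-Cre:LmnaF/F 4.

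To compare levels between genes, CPM was divided by the union of exons in kilobases, which gives a level per kilobase. In the WT, Nfkbia was the highest at 52.9 ± 9.06 per kilobase (SD, n = 4), followed by Rela at 36.3 ± 2.65. Nfkbiz at 16.0 ± 3.55 and Nfkb1 at 14.1 ± 1.18 came next, and their libraries overlapped. Relb (9.59 ± 4.74) and Nfkb2 (9.41 ± 1.44) could not be ordered, and neither could the neighbours among Bcl3 (3.79 ± 1.27), Nfkbie (2.02 ± 1.21), Tnfaip3 (1.58 ± 0.565) and Rel (1.44 ± 0.275). The steps from Nfkbia to Rela, from Rela to Nfkbiz and from Nfkb2 to Bcl3 were free of overlap. In the Pdgfra-Cre:LmnaF/F fibroblasts the order differed in that Nfkbiz, at 31.0 ± 4.80 per kilobase, stood beside Rela, at 29.6 ± 7.96, with overlapping libraries. Nfkbia remained the highest, at 78.6 ± 27.6, and Tnfaip3 was at 3.62 ± 0.690 per kilobase. The length of Nfkb1 decides its place, because the union of its exons is 12061 bases and its longest transcript 4149 bases. Per kilobase of the longest transcript it was at 41.1 ± 3.44 in the WT, beside Rela, and at 30.3 ± 5.73 in the Pdgfra-Cre:LmnaF/F libraries.

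Among the 5 subunits, Rela made up 53.2%, 52.7%, 44.4% and 55.2% of the level per kilobase in WT 1 to 4 and 50.9%, 49.8%, 52.5% and 43.4% in Pdgfra-Cre:LmnaF/F 1 to 4. By this length its share was the largest in every library, and it overlapped between the genotypes. Nfkb1 made up 19.9% ± 1.09 and 17.6% ± 1.63 (SD, n = 4 each), Nfkb2 13.3% ± 1.90 and 17.1% ± 2.13, Relb 13.4% ± 5.94 and 13.2% ± 5.87, and Rel 2.05% ± 0.465 and 2.99% ± 1.03. With the longest transcript as the length, the mean share of Rela was 38.8% in the WT and 38.2% in the Pdgfra-Cre:LmnaF/F libraries, and that of Nfkb1 was 38.7% and 35.0%.

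The balance between an inhibitor or IkB gene and a subunit was also taken within each library, as a ratio of CPM that does not depend on library size. The ratios were chosen after the values had been seen and carry no test. For Nfkbiz and Tnfaip3 their separation follows from the CPM ranges already given, so it is not a further result. Nfkbiz had 0.823, 0.576, 0.994 and 0.536 times the CPM of Rela in WT 1 to 4 and 1.34, 2.03, 1.69 and 1.999 times in Pdgfra-Cre:LmnaF/F 1 to 4. The ratios of the groups did not overlap. They compare the balance of the pair between libraries and not the levels of the genes, whose lengths differ. Tnfaip3 over Rela was 0.140, 0.0678, 0.0750 and 0.125 in WT 1 to 4 and 0.252, 0.229, 0.277 and 0.447 in Pdgfra-Cre:LmnaF/F 1 to 4, again without overlap. Nfkbia over Rela overlapped, at 0.642 to 1 in the WT and 0.827 to 3.12 in the Pdgfra-Cre:LmnaF/F libraries, with Pdgfra-Cre:LmnaF/F 4 at the top. Over Nfkb1 instead, neither Nfkbiz (0.470 ± 0.0820 and 1.25 ± 0.173, SD, n = 4 each) nor Nfkbia (0.497 ± 0.0542 and 1.09 ± 0.620) overlapped between the WT and Pdgfra-Cre:LmnaF/F libraries. The ratio of the canonical partners, Rela over Nfkb1, was 0.660 ± 0.0898 in the WT and 0.717 ± 0.0968 in the Pdgfra-Cre:LmnaF/F libraries (SD, n = 4 each), with overlap.

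**Figure D4:**
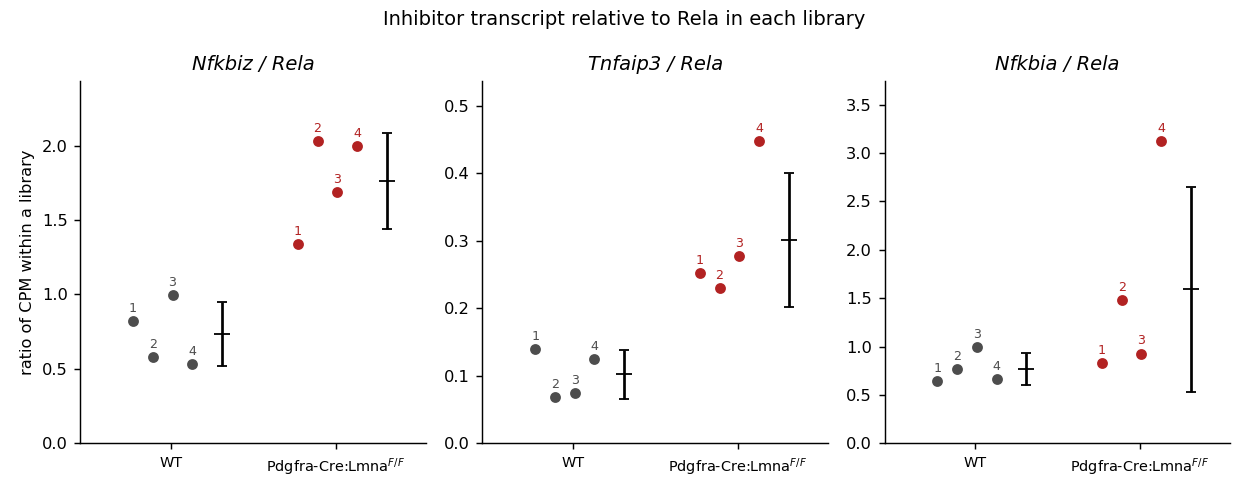
Ratio of the CPM of Nfkbiz, Tnfaip3 and Nfkbia to the CPM of Rela in each library (vertical axes from 0), for 4 WT and 4 Pdgfra-Cre:LmnaF/F libraries, with the mean ± SD beside each group. The groups are apart for Nfkbiz (at most 0.994 against at least 1.34) and for Tnfaip3 (at most 0.140 against at least 0.229) and overlap for Nfkbia. The separation for Nfkbiz and Tnfaip3 follows from the CPM ranges of the genes and is not a further result.

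The other genes of the pathway were described by role. Of 13 tested genes among 14 further inhibitors, none was called by edgeR and none had an unadjusted p under 0.05, with a median log2 fold change of 0.13. Over all tested genes, 0.407% were called and 11.9% had an unadjusted p under 0.05. Of the 13, 1 lay above the WT without overlap, against 4.06% of all tested genes. The 3 with the lowest p were Nfkbib, encoding IkB-beta (log2 fold change 0.99, SE 0.56), the Tnfaip3 adaptor Tax1bp1 (0.32, SE 0.18) and the deubiquitinase Cyld (0.41, SE 0.26). Nfkbib was 0.42 without Pdgfra-Cre:LmnaF/F 4 and 0.32 without both WT 2 and Pdgfra-Cre:LmnaF/F 4. The 11 genes of the IkB kinase complex and its activating kinases likewise held no call and no unadjusted p under 0.05. Their median was 0.07, and the kinases Map3k14 and Ikbkb had values of -0.41 (SE 0.25) and -0.26 (SE 0.26), while the adaptor Tab3 had 0.50 (SE 0.51). With 1 library left out, Map3k14 reached -0.27 (without Pdgfra-Cre:LmnaF/F 3), Ikbkb lay between -0.45 (without WT 2) and -0.12 (without WT 3), and Tab3 between 0.16 (without Pdgfra-Cre:LmnaF/F 3) and 0.78 (without WT 3). DESeq2 and limma-voom called none of either list.

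Among 17 adaptors and ubiquitin ligases, edgeR called none, 2 genes were higher and 1 lower at an unadjusted p under 0.05 (11.9% of all tested genes in either direction), and the median was -0.12. Ticam1, an adaptor of Toll-like receptors, had 48.4, 57.4, 29.6 and 45.4 CPM in WT 1 to 4 and 18.2, 27.5, 22.9 and 19.3 CPM in Pdgfra-Cre:LmnaF/F 1 to 4. All Pdgfra-Cre:LmnaF/F libraries were below the WT, with a log2 fold change of -1.03 (SE 0.28, edgeR Benjamini-Hochberg adjusted p = 0.134), and DESeq2, which called 2.58% of the genes it tested, gave an adjusted p = 0.0386. Birc2, a ubiquitin ligase at the tumour necrosis factor receptor, had 0.77 (SE 0.25, edgeR adjusted p = 0.218). Ube2n, the enzyme that builds the chains read by the kinase complex, had 0.65 (SE 0.25, edgeR adjusted p = 0.319). Each was higher in all Pdgfra-Cre:LmnaF/F libraries, as were 4.06% of all tested genes. Birc2 was 0.53 without Pdgfra-Cre:LmnaF/F 4. Without both WT 2 and Pdgfra-Cre:LmnaF/F 4, Ticam1 was -0.85 (edgeR adjusted p = 0.410), Birc2 0.52 and Ube2n 0.72. Of 12 tested receptors, 6 were higher and 6 lower, with no call by edgeR and 1 gene at an unadjusted p under 0.05. That gene was Tlr2 (-1.29, SE 0.56), which was at 45.1 CPM in WT 3 against 5.98 to 14.9 CPM in the other WT libraries and had a log2 fold change of -0.48 without WT 3. The interleukin 1 receptor chains Il1rap and Il1r1 had -0.46 (SE 0.22) and 0.37 (SE 0.19), and Il1rap was -0.28 without WT 3. Of 11 ligands, 2 were not listed and 6 were too low to test, including Tnf, which had at most 11 counts in any library. The 3 that were tested, Tnfsf12, Il1b and Il33, had log2 fold changes of -0.71 (SE 0.29), 1.33 (SE 1.63) and 0.12 (SE 0.32), with 1 unadjusted p under 0.05 and no call. Il1b, with at most 26 counts in a library, was 3.28 without WT 1 and 0.83 without Pdgfra-Cre:LmnaF/F 2. Il33 was 0.44 without WT 3, -0.20 without Pdgfra-Cre:LmnaF/F 4 and -0.25 without both WT 2 and Pdgfra-Cre:LmnaF/F 4. DESeq2 and limma-voom called no receptor and no ligand either.

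Target genes other than the members, such as cytokines, chemokines and adhesion molecules, had a median log2 fold change of 0.52. Of 32, 29 were listed and 25 tested, of which 2 rose by the edgeR test and none fell, against 0.169% and 0.238% of all tested genes. The list was chosen with earlier results of these data known, so its counts are descriptions and no test of enrichment. The calls numbered 4 under DESeq2 and 9 without a filter on low counts. By edgeR they numbered 7 without Pdgfra-Cre:LmnaF/F 4 and 0 without WT 4 or Pdgfra-Cre:LmnaF/F 3. The summed dissociation response lay above the WT in the same 4 Pdgfra-Cre:LmnaF/F libraries, at 9737 to 15679 CPM against 3475 to 7119 CPM, and its part in the target genes was not tested. At an unadjusted p under 0.05, 10 were higher and 1 was lower, against 6.24% and 5.65% of all tested genes. The groups did not overlap for 3 that were higher and for 0 that were lower, against 4.06% and 3.97%. Ier3, an immediate early gene that protects against apoptosis, had 11.5, 21.1, 21.1 and 11.4 CPM in WT 1 to 4 and 51.5, 47.3, 86.2 and 50.1 CPM in Pdgfra-Cre:LmnaF/F 1 to 4. It rose by 1.88 on the log2 scale (SE 0.31, edgeR Benjamini-Hochberg adjusted p = 0.0221). Gadd45b, a stress gene that NF-kB induces to restrain kinase signalling, had 10.2, 17.1, 26.4 and 22.7 CPM in WT 1 to 4 and 61.7, 62.5, 55.1 and 75.4 CPM in Pdgfra-Cre:LmnaF/F 1 to 4. It rose by 1.74 (SE 0.30, edgeR Benjamini-Hochberg adjusted p = 0.0239). The lowest Pdgfra-Cre:LmnaF/F value was 47.3 CPM for Ier3 and 55.1 CPM for Gadd45b, against a highest WT value of 21.1 and 26.4 CPM. With 1 library left out, Ier3 kept its call in 5 of 8 cases (lost without WT 1, WT 4 or Pdgfra-Cre:LmnaF/F 3) and Gadd45b in 4 of 8 (lost without WT 2, WT 4, Pdgfra-Cre:LmnaF/F 2 or Pdgfra-Cre:LmnaF/F 3). The highest adjusted p by edgeR were 0.0848 for Ier3, without Pdgfra-Cre:LmnaF/F 3, and 0.0701 for Gadd45b, without WT 2. Without both WT 2 and Pdgfra-Cre:LmnaF/F 4, the edgeR adjusted p was 0.0325 for Ier3 and 0.0957 for Gadd45b. Of the targets, 23 had a RefSeq promoter window. The targets whose window held the NF-kB consensus included Ier3 and did not include Gadd45b.

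Il6, a cytokine whose induction needs the Nfkbiz product in several cell types, had 0, 0, 0 and 5 counts in WT 1 to 4 and 49, 142, 145 and 26 counts in Pdgfra-Cre:LmnaF/F 1 to 4. It lay at 5.07, 14.8, 16.7 and 2.17 CPM in Pdgfra-Cre:LmnaF/F 1 to 4 and at most 0.518 CPM in the WT. No overlap was seen, and the edgeR Benjamini-Hochberg adjusted p was 0.0709. DESeq2 gave an adjusted p = 8.2e-05, edgeR without a filter on low counts 0.00436 and edgeR without Pdgfra-Cre:LmnaF/F 4 0.0364. It was 0.0729 under limma-voom, 0.177 with the replicate number as a block, 0.0947 by edgeR without both WT 2 and Pdgfra-Cre:LmnaF/F 4, and up to 0.224, without Pdgfra-Cre:LmnaF/F 3, when 1 library was left out. Its fitted log2 fold change, 5.78 (SE 1.27) by edgeR and 5.88 by DESeq2, rests on the 5 counts of WT 4 and is not a measured size. Without WT 4, which left only WT libraries with 0 counts, it was 9.35 by edgeR.

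**Figure D5:**
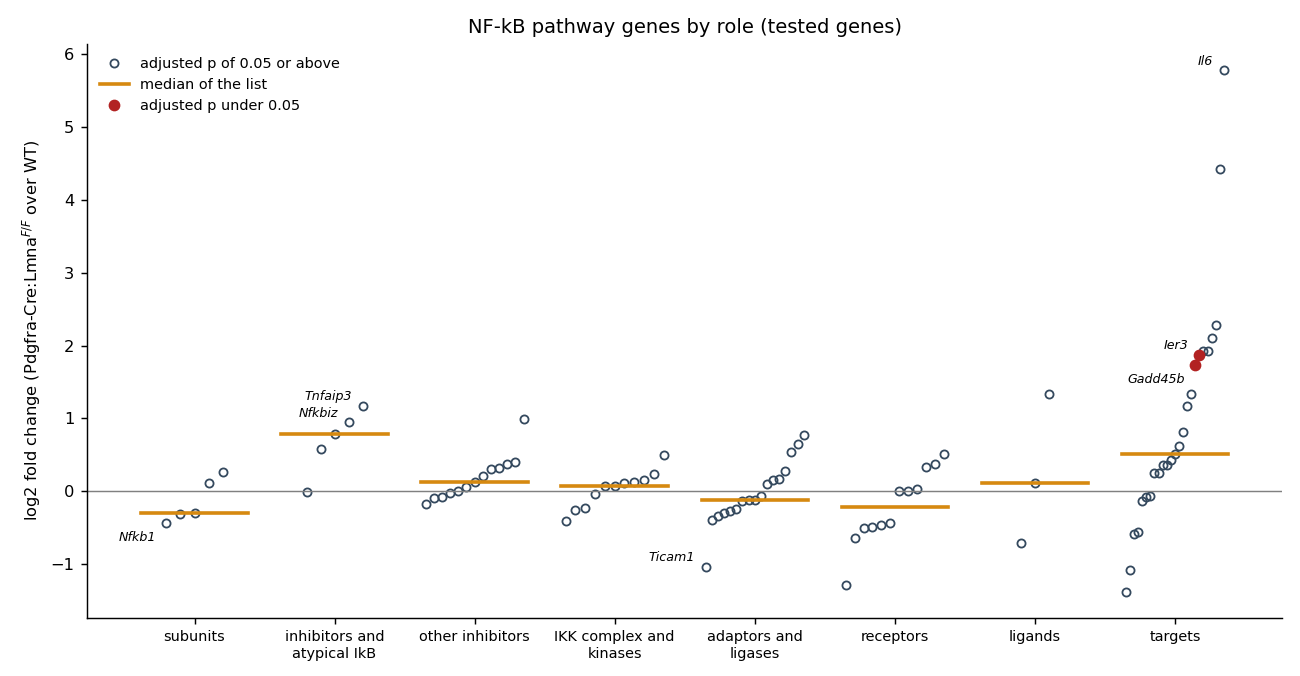
Log2 fold change (Pdgfra-Cre:LmnaF/F over WT, vertical axis) of the tested genes of 8 role lists of the NF-kB pathway, 1 point a gene, with the median of each list as a bar and genes with an edgeR adjusted p under 0.05 filled. The medians of the inhibitor and IkB members (0.78, the value of Nfkbie, and 0.54 under limma-voom) and of the targets (0.52) lie above 0. Those of the other inhibitors (0.13), the IkB kinase complex and kinases (0.07) and the ligands (0.12) also lie above it. Those of the subunits (-0.29, and 0.058 without WT 3), adaptors (-0.12) and receptors (-0.22) lie below it. The 2 filled points are Ier3 and Gadd45b.

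The genes whose levels followed Nfkbiz most closely over the 8 libraries, by Pearson correlation of log2 CPM across all tested genes, were Hnrnpa2b1 (r = 0.981), Kif5c (r = 0.969) and Smc6 (r = 0.963). For Tnfaip3 they were Gnal (r = 0.973), Dcaf15 (r = 0.967) and Knop1 (r = 0.966). These correlations span both genotypes and share library depth, and they are the highest of 13036 genes. After the genotype means were removed they lay between 0.844 and 0.957. Of the 6 genes, Hnrnpa2b1, an RNA-binding protein gene, rose by 0.997 on the log2 scale (SE 0.20, edgeR Benjamini-Hochberg adjusted p = 0.0447), and the other five had adjusted p between 0.237 and 0.632. With 1 library left out, Hnrnpa2b1 kept its call only without WT 3 and without Pdgfra-Cre:LmnaF/F 4, with edgeR adjusted p between 0.0215 and 0.184. The edgeR adjusted p was 0.0963 with the replicate number as a block and 0.0738 without both WT 2 and Pdgfra-Cre:LmnaF/F 4.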

How the data were processed

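Whole-number counts per gene symbol of 8 libraries (4 WT, 4 Pdgfra-Cre:LmnaF/F, grouped by the labelled genotype) were used. The authors depleted ribosomal RNA, made stranded libraries from RNA whose RIN exceeded 8, read them in pairs of 150 bp, mapped the reads to mm10 by HISAT2, assigned them to GENCODE genes by featureCounts and deposited these counts unscaled. The GENCODE release and the strand setting are not given in the sources used here. The methods name RUV normalization and DESeq2, and the labels list FastQC. The RUV factors are not in the counts. The lowest total of a listed gene was 4 counts.

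The genotype contrast was fitted by edgeR 4.0.16 (quasi-likelihood, R 4.3.3) after TMM scaling and filterByExpr, without covariates, and genes were called at a Benjamini-Hochberg adjusted p under 0.05. The procedure was tested on simulated data. Alternatives were DESeq2 1.42.0, limma-voom (limma 3.58.1), RLE factors, no filter, at least 10 counts in every library, 1 RUVr factor computed from residuals, the replicate number as a block, and leaving out each library. Leaving out WT 2 and Pdgfra-Cre:LmnaF/F 4 together was added after the data were seen. Coordinates and lengths come from GENCODE M21 (GRCm38), in which 18918 symbols matched, and promoters from RefSeq. The genes and lists were chosen with earlier results of these data known, so their counts are descriptions. Named were all members, Lmna, the called genes and the 3 genes with the lowest p of each pathway list, and the 3 genes most like each of the 2 members with the lowest p. The labels do not tie a sample to an animal, so the p-values measure the spread between samples. No promoter or protein sequence was looked for where none was given, and counts and depths cover counting error only.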

Additional observations from a re-analysis of the deposited data

Results flagged for a closer look

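Over 70 sets of 4 libraries of a named gene in 1 genotype, 5 held a library far from the other three on the log2 CPM scale by Dixon's criterion, which chance meets in about 1 set in 20. Relb in WT 3 was at 6.025 (64.9 CPM), with the nearest WT library at 4.884. Tnfaip3 in Pdgfra-Cre:LmnaF/F 2 was at 4.248 (18.8 CPM), below the nearest of its group at 4.785, and still above the WT. Il33 in Pdgfra-Cre:LmnaF/F 4 was at 6.073 (67.1 CPM), with the nearest at 5.112, and this library also held the most cardiomyocyte and leukocyte marker RNA. Ier3 in Pdgfra-Cre:LmnaF/F 3 was at 6.434 (86.2 CPM), with the nearest at 5.693, in the library with the highest dissociation sum. Il6 in WT 4 was at -0.4129, from 5 counts, while the other WT libraries had 0 counts.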

How the results depend on the processing

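Among the members, Lmna, the counts of calls and the share of Rela, 260 of the values recomputed under another setting counted as unchanged. A further 10 reversed, 16 moved and 5 gained a call. For the other named genes and levels these numbers were 403, 2, 11 and 4, and 16 lost a call. A fold change counted as unchanged when it kept its direction and side of the threshold. A number of calls did so when it stayed equal or similar, and a share or level when it moved by less than the SD of its group. Nfkbiz gained a call, with log2 fold changes of 0.94 (DESeq2), 1.09 (limma-voom), 0.93 (no filter) and 0.97 (1 RUVr factor), and ranged from 0.84 to 1.07 with 1 library left out, with a call only without Pdgfra-Cre:LmnaF/F 4. The number of members called was then 1 under each of DESeq2, limma-voom, no filter and 1 RUVr factor, and 0 to 1 with 1 library left out. Under limma-voom, Rel reversed to -0.044, Nfkbie to -0.21 and Bcl3 to 0.26. Bcl3 was 0.0093 under the filter of 10 counts, under which Nfkbie could not be fitted, 0.19 without both WT 2 and Pdgfra-Cre:LmnaF/F 4, and -0.24 to 0.27 with 1 library left out. With 1 library left out, Relb ranged from -0.46 to 0.093 and Il33 from -0.20 to 0.44, and Il33 was -0.25 without both libraries. None of these reversals involved a call, and the cause was not tested. The adaptor list had 1 call under DESeq2. The target list had 4 calls under DESeq2, 9 without a filter and 0 to 7 with 1 library left out, with 7 without Pdgfra-Cre:LmnaF/F 4, 0 without WT 4 or Pdgfra-Cre:LmnaF/F 3, and 1 without WT 1, WT 2 or Pdgfra-Cre:LmnaF/F 2. By the longest transcript the share of Rela was 38.8% in the WT and 38.2% in the Pdgfra-Cre:LmnaF/F libraries. Over all genes, edgeR called 53, DESeq2 303, limma-voom 126, no filter 274, 1 RUVr factor 81 and 13 to 76 with 1 library left out. Libraries with the same replicate number did not deviate together (correlations of -0.0298 to 0.0396), so the numbers were not taken as pairs. With the replicate block, 36 genes and 0 members were called. WT 2, with 2080555 counts, limits the low genes most: Rel had 19 counts there, Tnfaip3 16 and Nfkbie 5.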
